A study of Drosophila melanogaster with 21 samples.

Results

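The 34 genes described here drive the cell division cycle of *Drosophila melanogaster*: 8 act at the step from G1 into S phase, 15 in DNA replication and 11 in G2 and mitosis. They are a list of named genes of these steps, drawn up with earlier results of these data known, and all 34 were found among the 17558 genes of the count table. They were followed in wing imaginal discs, the larval epithelia that grow and divide before they form the adult wing, dissected from male larvae of the third instar reared at 25 °C. Every mutant lacks part of the MSL complex, which raises transcription of the single male X. The msl-2 mutants (homozygous msl-2.227, 4 libraries) and their controls (msl-2.227 over the second chromosome balancer CyO-GFP, 3 libraries) came from Bloomington stock 5871. The mle mutants (homozygous mle.9, 3 libraries) and their controls (mle.9 over CyO-GFP, 2 libraries) came from stock 5873. For msl-1, the allele was msl-1.L60, with 3 homozygous libraries and 3 libraries of discs heterozygous over CyO-GFP. The roX1 roX2 mutants (roX1.SMC17A roX2.∆, 3 libraries) lack both noncoding RNAs of the complex and have no heterozygous siblings in the labels. Their control is therefore an average of the msl-2, msl-1 and mle heterozygous groups, each weighted equally. The labels call all 4 mutants null, and every heterozygous control carries 1 mutant allele.

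Progress through the cycle depends on cyclins paired with kinases. CycD with Cdk4, and then CycE with Cdk2, inactivate the retinoblastoma protein Rbf, which frees the activator E2f1 to turn on the replication genes. At origins of replication the origin recognition complex, Cdc6 and the Cdt1 homologue dup load the Mcm helicase, geminin holds dup back, and ribonucleotide reductase supplies the nucleotides. Entry into mitosis requires the phosphatase stg, the fly Cdc25, which activates Cdk1 bound to CycA or CycB, and exit requires the destruction of cyclins by the anaphase-promoting complex with fzy or fzr. In wing discs E2f1, CycE and stg are known as limiting steps of proliferation.

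Poly-A RNA was sequenced to between 1388848 and 4131600 counts per library in 20 of the 21 libraries. Replicate 2 of the msl-1 heterozygotes stood apart: it held 830905 counts, reads in 16540 genes against 13377 to 15962 elsewhere, and 6.17% mitochondrial counts against at most 3.72%. The 34 genes summed to 1923 CPM (counts scaled to a common library size by TMM) in it and to between 4142 and 6343 CPM in the other libraries. It was left out of the values below, and calls of the 34 genes are also given with all 21 libraries. The labels do not say whether replicates are separate dissections, so p-values measure the spread between libraries. The mutated genes were checked first: roX2 had no counts in any roX1 roX2 library, and roX1 averaged 48.6 ± 16.1 CPM there (SD, n = 3) against at least 2590 CPM in each heterozygous group. The level of msl-2 was 52.7 ± 4.78 CPM in its mutants (n = 4) and 99.3 ± 7.05 CPM in its controls (n = 3). The transcripts of mle (226 ± 11.9 CPM, n = 3, against 143 ± 4.54 CPM, n = 2) and msl-1 (129 ± 18.0 CPM, n = 3, against 84.0 ± 39.0 CPM, n = 2) were not lower in their own mutants, so the level of these genes does not check those labels. In those mutants roX2 averaged 2.17 CPM and 0.441 CPM, against 317 and 154 CPM in their controls.

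All 34 genes were expressed in the heterozygous discs. Levels are given per kilobase of exon, as the mean of the msl-2, msl-1 and mle heterozygous group means. The highest was PCNA, the sliding clamp of the replication fork, at 382 RPKM (range over the 7 heterozygous libraries 275 to 469). Next came geminin at 193 RPKM, Cdk1 at 179 RPKM and the mitotic kinase gene aurB at 159 RPKM, whose ranges over libraries overlapped each other. The lowest were the origin genes Orc2 at 14.99 RPKM (9.37 to 18.1) and Cdc6 at 13.9 RPKM (10.6 to 17.2), which overlapped as well. CycE stood at 19.0 RPKM, below CycD at 27.1 RPKM, with overlapping ranges. A single gene drew between 28 and 2066 counts in a library.

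Most of the module did not pass the test in any mutant. Of 136 gene and mutant pairs, 19 were called by edgeR's quasi-likelihood test with Benjamini-Hochberg adjustment over 10367 genes at an adjusted p under 0.05. In this fit all calls upward fell on 3 replication genes, RnrL, dup and Orc2. All calls downward fell on 5 G1/S genes, CycD, Cdk4, E2f1, Rbf and dap, and on the G2/M genes Cdk1 and fzr. The other 24 genes were called in no mutant, and no gene was called in opposite directions, both in this fit. Other fits of the same 20 libraries added calls outside these genes, among them the G2/M gene stg (higher in msl-2 in 4 other fits), the G1/S gene CycE (higher in mle with DESeq2) and the replication gene Mcm6 (lower in mle with a replicate block). The msl-2 mutants had 2 of 34 genes higher, where 2.96% of all genes tested were called higher, and 3 lower, where 8.6% were called lower. In msl-1 mutants 2 were higher (all genes 10.2%) and 2 lower (all genes 12.9%). Among the mle mutants 2 were higher (all genes 3.73%) and 2 lower (all genes 9.76%). Discs without roX1 and roX2 had 3 higher (all genes 6.24%) and 3 lower (all genes 8.51%). These counts stand close to the shares over all genes, so nothing is read from them about the module as a whole. Across the genes of the module, every mutant library lay above every control library for 4 genes in msl-2 (9.75% of all genes), 4 in mle (13.4%), 8 in msl-1 (23.2%) and 2 in roX1 roX2 (4.41%). Every mutant library lay below every control for 7 (18.8%), 6 (24.2%), 3 (29.1%) and 3 genes (6.28%) in that order. With all 21 libraries the counts called were 0 higher and 0 lower in msl-2 (all genes 0.543% and 0.797%), 5 and 0 in msl-1 (12.1% and 26.9%), 0 and 0 in mle (1.35% and 2.15%) and 1 and 0 in roX1 roX2 (3.43% and 2.19%). The roX1 roX2 comparison shares its control libraries with the other 3, so its values are given beside theirs and not as separate support.

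**Figure D1:**
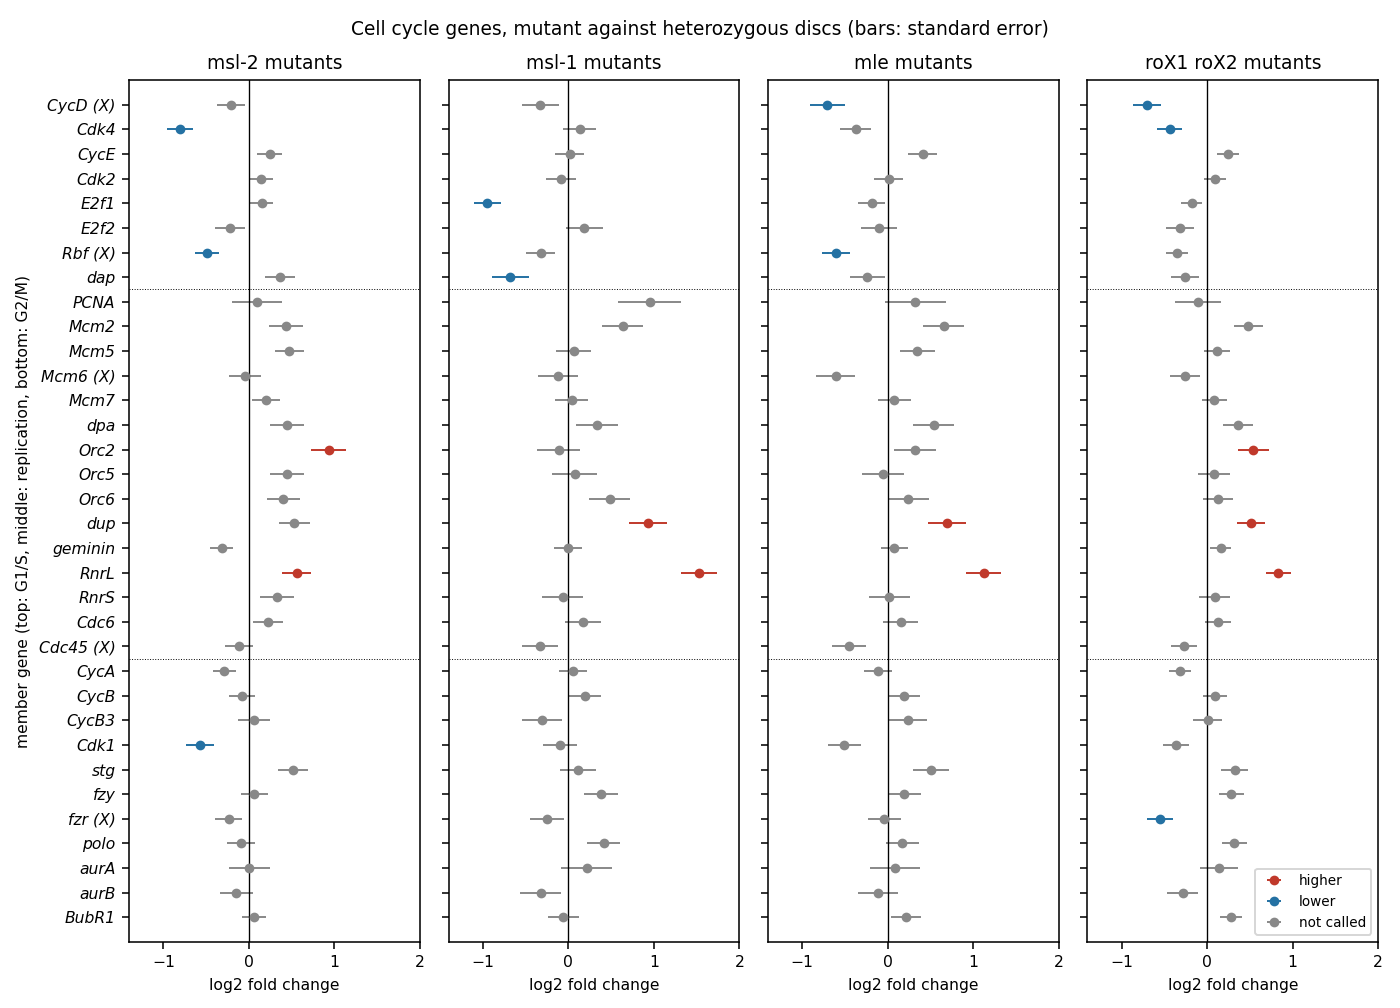
Log2 fold change of each of the 34 genes (rows, grouped as G1/S, replication and G2/M; X marks X-linked genes) in each mutant against heterozygous discs, with standard errors; red is called higher, blue is called lower and grey is not called. Red points are RnrL, dup and Orc2, and RnrL is red in all 4 panels.

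E2f1, the activator of S phase genes (3R:21620304-21660871 on dm6), stood lower in msl-1 mutants. Its level was 418 and 538 CPM in the 2 msl-1 heterozygous libraries and 257, 248 and 238 CPM in the 3 mutant libraries, so that every mutant library lay below both controls. The fitted log2 fold change was -0.95 ± 0.16 (SE), or 0.518 times the control level, with an adjusted p of 0.000123. With replicate 2 of the heterozygotes, at 181 CPM, included, the log2 fold change was -0.56 and the call was lost (adjusted p = 0.139). In the other stocks E2f1 did not pass the test. It ranged from 279 to 325 CPM in msl-2 heterozygotes and from 307 to 399 CPM in msl-2 mutants. The mle libraries overlapped too, with 354 and 380.1 CPM in controls and 360.0, 284 and 323 CPM in mutants, and the roX1 roX2 mutants stood at 302, 352 and 343 CPM. Against the msl-1 heterozygotes alone the latter were called lower (-0.53, adjusted p = 0.0425). The E2f1 gene overlaps an antisense RNA and a pair of long noncoding RNAs on the other strand, and the strand setting of the counting is not given in the sources used here.

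Cdk4, the kinase partner of CycD in growth and G1 progression (2R:16579470-16585448), was lower in msl-2 mutants. It stood at 156, 133 and 125 CPM in their heterozygous controls and at 82.8, 77.6, 59.0 and 95.2 CPM in the mutants, without overlap. The log2 fold change was -0.81 ± 0.15, with an adjusted p of 0.00192 (-0.83, adjusted p = 0.111 with all 21 libraries). The roX1 roX2 mutants, at 92.2, 83.6 and 70.9 CPM, were also called lower (-0.44 ± 0.15, adjusted p = 0.0451; -0.33, adjusted p = 0.532 with 21 libraries). This call was narrow: it was lost in 12 of 20 fits that each left out 1 library (adjusted p up to 0.2003) and in 8 of 10 other settings, which included DESeq2, other filters and other controls. Against the msl-1 heterozygotes alone, at 96.3 and 76.8 CPM, the log2 fold change was -0.07. In mle, controls stood at 119 and 115 CPM and mutants at 72.5, 96.9 and 99.7 CPM, which do not overlap, but the change did not pass (-0.37 ± 0.18, adjusted p = 0.214). The msl-1 mutants lay at 89.1, 100.1 and 95.0 CPM, which overlapped their controls.

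CycD, the cyclin that activates Cdk4, is X-linked (X:15906822-15909676) and was called lower in mle and roX1 roX2 mutants. Its level in mle controls was 79.9 and 64.3 CPM, and in mle mutants 34.6, 41.5 and 55.5 CPM, all below both controls (-0.71 ± 0.20, adjusted p = 0.0201; adjusted p = 0.280 with 21 libraries). Discs lacking roX1 and roX2 held 37.2, 38.7 and 45.9 CPM (-0.70 ± 0.16, adjusted p = 0.0047; -0.58, adjusted p = 0.206 with 21 libraries). Those 3 libraries were lower than all msl-2 and mle heterozygotes and overlapped the msl-1 heterozygotes, at 64.7 and 42.1 CPM, against which alone the log2 fold change was -0.40. The mle call was also lost with DESeq2, in a fit of only the mle groups, and without heterozygous replicate 1 or mutant replicate 1 or 2 of mle (adjusted p up to 0.326). Neither the msl-2 mutants (51.4 to 71.8 CPM, controls 72.1 to 77.1 CPM) nor the msl-1 mutants (37.0 to 46.4 CPM) passed the test.

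Rbf, the repressor that CycD and Cdk4 counter, is X-linked as well (X:797090-801479). In msl-2 it stood at 97.6, 87.8 and 102 CPM in controls and at 68.1, 75.9, 56.5 and 72.7 CPM in mutants (-0.49 ± 0.14, adjusted p = 0.0238; adjusted p = 0.377 with 21 libraries). In mle it stood at 120.2 and 102 CPM in controls and at 66.3, 84.6 and 68.1 CPM in mutants (-0.60 ± 0.16, adjusted p = 0.0138; adjusted p = 0.391 with 21 libraries). The mutant libraries lay below every control library in both stocks. They did so in msl-1 (82.0 and 81.2 CPM against 52.9, 71.4 and 70.0 CPM) and roX1 roX2 (77.3, 76.9 and 70.0 CPM) as well, where the test was not passed (adjusted p = 0.174 and 0.0688). With other controls roX1 roX2 was called lower: against the msl-2 and mle heterozygotes (-0.46, adjusted p = 0.0195) and mle alone (-0.57, adjusted p = 0.0254). Against msl-2 or msl-1 alone it was not called. A replicate block ended both calls. The msl-2 call was also lost without heterozygous replicate 1 or 4 or mutant replicate 3 (adjusted p up to 0.1001), and the mle call without heterozygous replicate 1 or mutant replicate 1 or 3 (adjusted p up to 0.284).

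CycE, which starts S phase with Cdk2, was called in no mutant: its log2 fold change was 0.41 ± 0.17 in mle, 0.02 ± 0.17 in msl-1 and 0.24 in both msl-2 (SE 0.14) and roX1 roX2 (SE 0.13), with adjusted p-values from 0.129 to 0.957. DESeq2 called it higher in mle (0.52, adjusted p = 0.0357). Its mle mutant libraries, at 88.1, 104 and 127 CPM, all lay above the controls, at 78.4 and 82.0 CPM. The msl-2 libraries overlapped, with 82.3, 91.5 and 106 CPM in controls and 110.4, 101, 106 and 123 CPM in mutants. The same held for msl-1, with 113 and 115 CPM in controls and 131, 122 and 93.9 CPM in mutants, while the roX1 roX2 mutants had 106, 110.0 and 121 CPM. The gene dap encodes the p21/p27 type inhibitor of CycE with Cdk2 and was singled out after its values were seen. It fell in msl-1 mutants, from 117 and 104 CPM to 61.9, 78.2 and 66.0 CPM (-0.68 ± 0.21, adjusted p = 0.0254; -0.35, adjusted p = 0.307 with 21 libraries). That call was lost under both other filters and without heterozygous replicate 1 or 3 or mutant replicate 1 or 3 of msl-1 (adjusted p up to 0.155). In msl-2 mutants dap held 139, 139, 149 and 136 CPM against 82.7, 104 and 141 CPM in controls (0.36 ± 0.17, adjusted p = 0.167). Without msl-2 heterozygous replicate 4 it was called higher there (0.59, adjusted p = 0.0432), opposite to msl-1. Cdk2 and the repressor E2f2 were called in no mutant, with log2 fold changes between -0.32 and 0.19.

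RnrL, the large subunit of ribonucleotide reductase (2L:10325026-10327943), was higher in all 4 mutants. In msl-1 heterozygotes it stood at 168 and 120.4 CPM and in the mutants at 418, 425 and 398 CPM, which is 2.88 times as high, without overlap (log2 fold change 1.52 ± 0.21, adjusted p = 1.5e-05; 1.89, adjusted p = 0.000406 with 21 libraries). In mle it stood at 124 and 180.2 CPM in controls and at 263, 394 and 333 CPM in mutants, again without overlap (1.12 ± 0.21, adjusted p = 0.000631). That call was lost with 21 libraries, although the log2 fold change of 1.12 hardly moved (adjusted p = 0.104), and it was also lost without mle heterozygous replicate 1 (adjusted p = 0.0606). All 3 roX1 roX2 libraries, at 257, 292 and 302 CPM, lay above all 7 heterozygous libraries (0.83 ± 0.15, adjusted p = 0.000385; 0.95, adjusted p = 0.0264 with 21 libraries). The change was smallest in msl-2, where controls had 158, 173 and 219.7 CPM and mutants 286, 289.9, 218 and 290.1 CPM. Mutant replicate 3 overlapped the highest control there (0.56 ± 0.17, adjusted p = 0.0339; 0.54, adjusted p = 0.426 with 21 libraries). The msl-2 call was lost under both other filters, and without heterozygous replicate 1 or 2 or mutant replicate 1, 2 or 4 (adjusted p up to 0.174).

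The partner subunit RnrS was called in no mutant, with log2 fold changes of -0.07 ± 0.24 (msl-1), 0.02 ± 0.24 (mle), 0.09 ± 0.18 (roX1 roX2) and 0.33 ± 0.20 (msl-2). The ratio of RnrL to RnrS counts within a library needs no scaling between libraries. This ratio, picked after the values were seen and so given as a description, was 0.825 and 0.920 in the msl-1 heterozygotes and 2.98, 2.32 and 2.602 in the msl-1 mutants. It was 0.916 and 1.08 in mle heterozygotes and 2.48, 2.41 and 1.77 in mle mutants. The msl-2 mutants (0.849, 1.21, 0.968 and 0.954) overlapped their controls (0.790, 0.8286 and 0.875), and the roX1 roX2 mutants had 1.36, 1.99 and 1.32. Levels of the 2 subunits thus parted in roX1 roX2, mle and msl-1 discs and stayed near their control ratio in msl-2 discs. In the left-out library the ratio was 0.531.

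The licensing factor dup (2R:15376619-15380988), the fly Cdt1, was called higher in 3 mutants. Its level in msl-1 was 100.4 and 81.2 CPM in controls and 177, 187 and 155 CPM in mutants (0.93 ± 0.23, adjusted p = 0.00449; 1.27, adjusted p = 0.00508 with 21 libraries). Without heterozygous replicate 3 of msl-1 the call was lost (adjusted p = 0.108). The mle mutants had 107, 169.6 and 158 CPM against 82.4 and 97.4 CPM (0.69 ± 0.22, adjusted p = 0.0368; adjusted p = 0.375 with 21 libraries), and in both stocks no mutant library overlapped a control. The mle call was lost in 5 of 7 other settings, and without either heterozygous library or mutant replicate 2 or 3 (adjusted p up to 0.371). The roX1 roX2 mutants, at 157, 135 and 155 CPM, overlapped the msl-2 heterozygotes, at 129, 119.9 and 170.3 CPM (0.51 ± 0.16, adjusted p = 0.0334; adjusted p = 0.160 with 21 libraries). Against the msl-2 heterozygotes alone their log2 fold change was 0.09, and the call was lost in 6 of 10 other settings and in 7 of 20 fits without 1 library. The msl-2 mutants, at 263, 208, 149 and 188 CPM, missed the threshold (0.53 ± 0.18, adjusted p = 0.0572) and passed it with TMM on all genes, DESeq2 or a replicate block (adjusted p = 0.0432, 0.0220 and 0.0294).

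Its inhibitor geminin was called in no mutant, and its log2 fold change was negative in msl-2 (-0.32 ± 0.13, adjusted p = 0.115). The within-library ratio of dup to geminin counts, also picked after the values were seen, was higher in the mutants of all 3 stocks with their own controls. It was 0.596, 0.494 and 0.729 in msl-2 heterozygotes and 1.24, 1.22, 0.947 and 0.940 in msl-2 mutants. For msl-1 it went from 0.439 and 0.463 to 0.894, 0.895 and 0.786, and for mle from 0.487 and 0.506 to 0.623, 0.820 and 0.818. The groups did not overlap in any of these 3 stocks. Discs of the roX1 roX2 stock had 0.617, 0.620 and 0.746, which overlapped the msl-2 heterozygotes. The left-out library, at 0.467, was like the other msl-1 heterozygotes in this ratio.

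**Figure D2:**
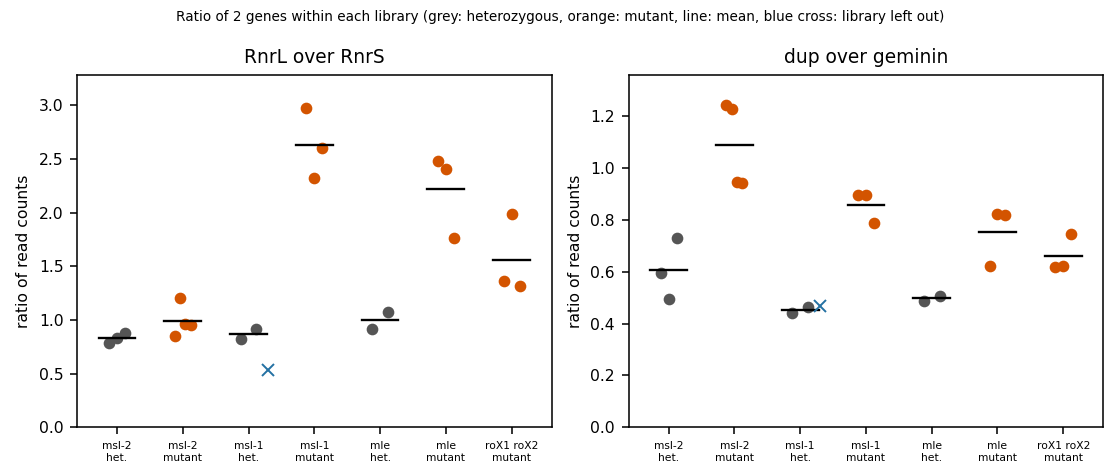
Ratio of read counts of RnrL over RnrS (left) and of dup over geminin (right) in every library, by group; grey points are heterozygous, orange points mutant, the line is the group mean and the blue cross is the library left out. RnrL exceeds RnrS by 1.77 to 2.98 times in msl-1 and mle mutants, and dup over geminin lies above the own controls in msl-2, msl-1 and mle mutants.

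Orc2, a subunit of the origin recognition complex (3R:13964885-13967075), was called higher in msl-2 and roX1 roX2 mutants. Its levels are low: 18.7, 28.03 and 32.2 CPM in msl-2 heterozygotes, and 55.2, 51.6, 41.5 and 54.4 CPM in msl-2 mutants, which is 1.91 times as high, without overlap (0.93 ± 0.20, adjusted p = 0.00478; 0.91, adjusted p = 0.0587 with 21 libraries). In roX1 roX2 discs the levels, at 48.4, 40.3 and 40.0 CPM, lay above all 7 heterozygous libraries (0.54 ± 0.18, adjusted p = 0.0439; 0.61, adjusted p = 0.0934 with 21 libraries). That call is narrow: it was lost in 13 of 20 fits that each left out 1 library. The msl-1 mutants (27.9 to 37.8 CPM, controls 35.2 and 36.2 CPM) and the mle mutants (29.5 to 40.2 CPM, controls 19.6 and 35.9 CPM) overlapped their controls. The Orc2 gene overlaps rdx on the other strand.

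For PCNA and Mcm2 the call depended on the fit: neither passed the edgeR test used here, and both passed others on the same 20 libraries. PCNA stood at 709.9, 860.3 and 747 CPM in msl-1 mutants and at 488 and 312 CPM in their controls, without overlap (0.95 ± 0.37, adjusted p = 0.0703). It was called there by DESeq2, by a fit of only the msl-1 groups and with a replicate block (adjusted p = 0.00905, 0.000332 and 0.00898). Its spread elsewhere was wide, with 475, 566, 337 and 661 CPM in msl-2 mutants (controls 502, 483 and 446 CPM), 340.0, 678 and 291 CPM in mle mutants (controls 294 and 405 CPM) and 505, 391 and 232 CPM in roX1 roX2 mutants. Mcm2, a subunit of the replicative helicase, had positive log2 fold changes in all 4 mutants: 0.65 ± 0.24 for mle, 0.64 ± 0.24 for msl-1, 0.48 ± 0.18 for roX1 roX2 and 0.43 ± 0.20 for msl-2 (adjusted p from 0.0608 to 0.147). Both TMM on all genes and DESeq2 called it higher in msl-1, mle and roX1 roX2 (adjusted p from 0.0167 to 0.0448). In msl-1 its controls held 156 and 106 CPM and its mutants 189, 225 and 196 CPM, without overlap. Elsewhere its mutant libraries overlapped the controls, with 298, 236, 185 and 259.9 CPM in msl-2 mutants (controls 155, 171 and 219 CPM), 139, 223 and 197 CPM in mle mutants (controls 93.2 and 145 CPM) and 225, 166 and 201 CPM in roX1 roX2 mutants. With all 21 libraries PCNA (1.498, adjusted p = 0.0412), Mcm2 (1.04, adjusted p = 0.0266) and Orc6 (0.70, adjusted p = 0.0332) were also called higher in msl-1, since the library added to the controls was low in each.

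The remaining 10 replication genes, the helicase subunits Mcm5, Mcm6, Mcm7 and dpa (the fly Mcm4), the origin subunits Orc5 and Orc6, the loader Cdc6, the helicase cofactor Cdc45, geminin and RnrS, were called in no mutant. The log2 fold changes of dpa (0.54 ± 0.24) and the X-linked Mcm6 (-0.61 ± 0.22) in mle did not pass here and were called with a replicate block (adjusted p = 0.0273 and 0.0156). Mcm5 was called higher in msl-2 by 4 other fits, TMM on all genes, DESeq2, only the msl-2 groups and the block (adjusted p from 0.0250 to 0.0486). Over all 15 replication genes the median log2 fold change was 0.40 for msl-2 (12 genes above 0), 0.24 for mle (12 above 0), 0.12 for roX1 roX2 (12 above 0) and 0.07 for msl-1 (10 above 0). The medians over all genes tested were -0.03, -0.08, -0.06 and -0.13 in that order. With 21 libraries the median of the 15 genes was 0.45 for msl-1 (14 above 0) and 0.38 for msl-2 (12 above 0). The place of msl-1 as the smallest thus hung on 1 library.

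**Figure D3:**
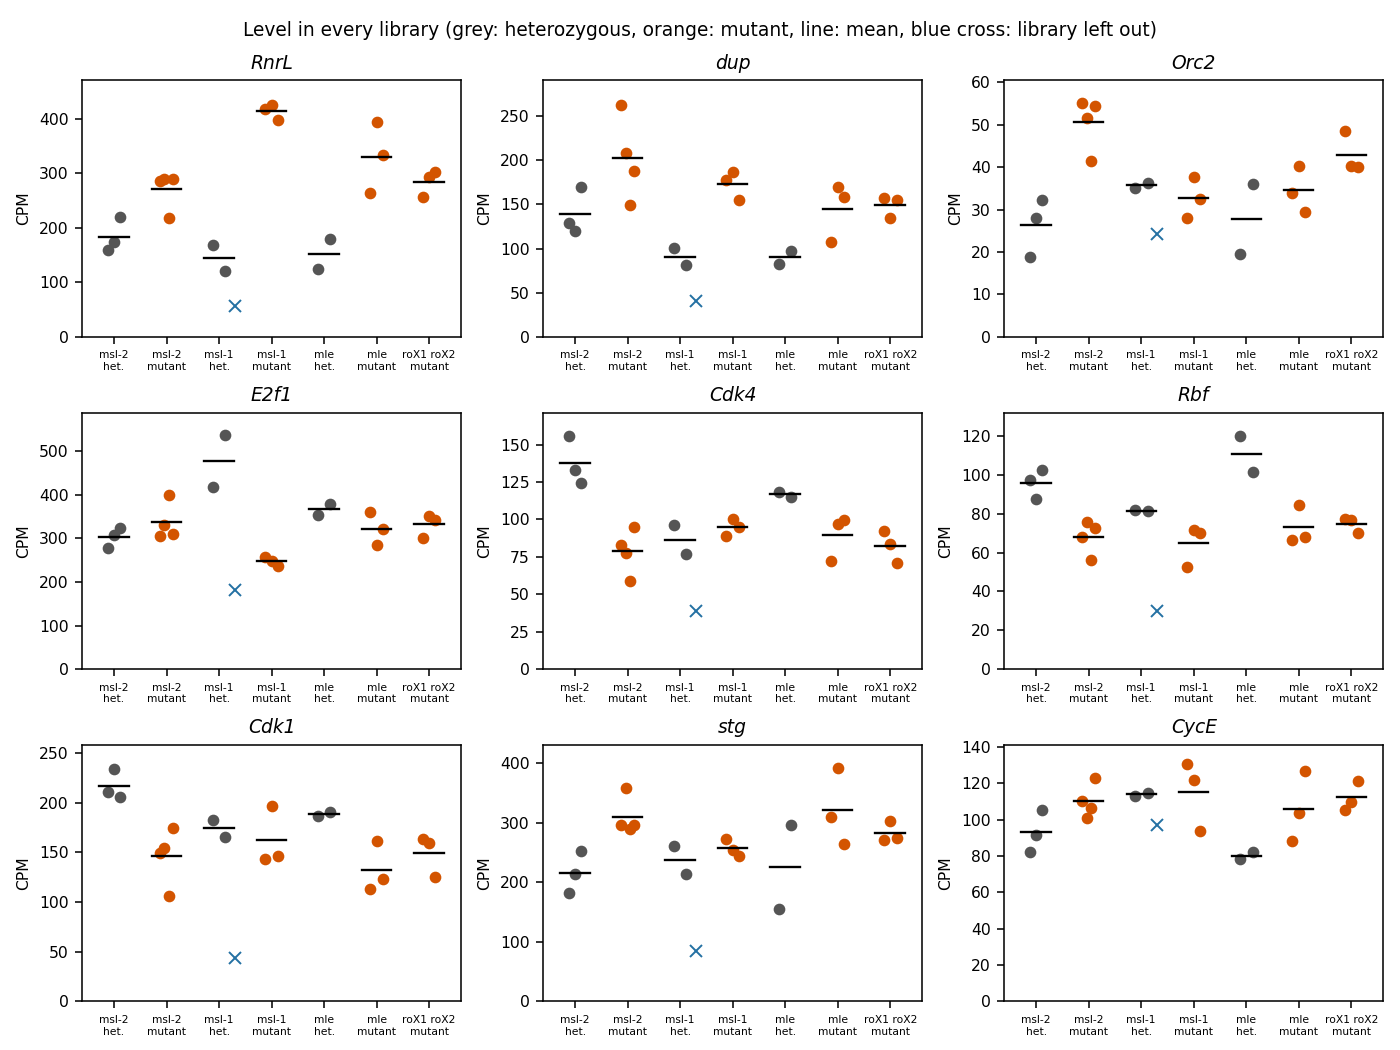
Level of 9 genes in every library in CPM; grey points are heterozygous discs, orange points mutant discs, the line is the group mean and the blue cross marks the library left out. RnrL is above its controls in each mutant group but for 1 msl-2 mutant library at 218 CPM, and E2f1 is below its controls in msl-1 mutants.

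Of the G2/M genes, Cdk1 and fzr were called by that test, each in 1 mutant. Cdk1, the mitotic kinase (2L:10384739-10386262), stood at 211, 234 and 206 CPM in msl-2 heterozygotes and at 149.8, 154, 106 and 175 CPM in msl-2 mutants, without overlap (-0.57 ± 0.16, adjusted p = 0.0249; adjusted p = 0.432 with 21 libraries). Its mle mutants, at 113, 161 and 123 CPM, all lay below the controls, at 187 and 190.4 CPM, but missed the threshold (-0.51 ± 0.19, adjusted p = 0.0887). The roX1 roX2 mutants, at 163, 159 and 125 CPM, lay below all 7 heterozygous libraries and did not pass either (-0.37 ± 0.15, adjusted p = 0.112). In msl-1, controls at 183 and 165 CPM overlapped mutants at 143, 197 and 147 CPM. The call of Cdk1 was also lost with a replicate block and without heterozygous replicate 1 or 2 or mutant replicate 3 of msl-2 (adjusted p up to 0.116). The activator of Cdk1, stg, was called in no mutant by the edgeR test used here. Its msl-2 mutants, at 295, 358, 289.9 and 296 CPM, lay above the controls, at 182, 214 and 253 CPM (0.52 ± 0.18, adjusted p = 0.0619), and stg was called higher there with TMM on all genes, DESeq2, only the msl-2 groups or a replicate block (adjusted p = 0.0455, 0.0169, 0.0171 and 0.0437). In mle, 156 and 297 CPM in controls overlapped 309, 391 and 264 CPM in mutants (0.51 ± 0.21, adjusted p = 0.131), and DESeq2 and the block called stg higher (adjusted p = 0.0306 and 0.0285). The msl-1 libraries overlapped as well, at 260.3 and 215 CPM against 273, 254 and 244 CPM, and roX1 roX2 mutants had 271, 303 and 275 CPM.

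The fly Cdh1, fzr, which keeps mitotic cyclins low in G1, is X-linked (X:4667290-4679537). It was called lower in roX1 roX2 mutants, at 42.8, 33.6 and 31.8 CPM against 46.1 to 65.2 CPM over the 7 heterozygous libraries, without overlap (-0.55 ± 0.15, adjusted p = 0.0158; -0.44, adjusted p = 0.352 with 21 libraries). That call was lost in 4 of 10 other settings, and without mutant replicate 3 or 4 or msl-1 heterozygous replicate 1 (adjusted p up to 0.0836). In msl-2 its mutants, at 41.6, 53.6, 53.2 and 45.7 CPM, lay just below the controls, at 55.7, 55.3 and 60.1 CPM, and did not pass (adjusted p = 0.319). The msl-1 libraries (65.2 and 47.6 against 51.4, 54.1 and 36.4 CPM) and the mle libraries (47.5 and 46.1 against 50.7, 44.4 and 42.1 CPM) overlapped. CycA, the cyclin of S phase and early mitosis, was called in no mutant, and its msl-2 mutants at 280.4, 241, 215 and 293 CPM lay below controls at 317, 294 and 334 CPM (-0.29 ± 0.13, adjusted p = 0.154). Its other mutant groups overlapped their controls, with 264, 225 and 228 CPM in msl-1, 187, 255 and 249.5 CPM in mle and 228, 202 and 201 CPM in roX1 roX2. Against the msl-2 heterozygotes alone the roX1 roX2 mutants were called lower for CycA (-0.58, adjusted p = 0.00818). They were also called against the msl-2 and mle heterozygotes together (-0.41, adjusted p = 0.0363), and not against msl-1 or mle alone.

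The mitotic kinase polo and fzy, the fly Cdc20 that triggers anaphase, had their highest log2 fold changes in msl-1, at 0.41 ± 0.20 and 0.38 ± 0.20 (adjusted p = 0.131 and 0.167). For polo these mutants held 370.1, 371 and 349 CPM and their controls 344 and 203 CPM. For fzy they held 119, 146 and 125 CPM and their controls 118 and 82.7 CPM. In both genes the mutant libraries lay just above the higher control. Without msl-1 heterozygous replicate 1, which held that higher level, both were called (adjusted p = 0.00956 and 0.0496). The msl-2 libraries overlapped in both, polo at 416, 385 and 462 CPM in controls and 457, 380.5, 326 and 417 CPM in mutants, fzy at 125, 149 and 149 CPM and at 157, 149, 114 and 169 CPM. The other 5 G2/M genes, the cyclins CycB and CycB3, the kinases aurA and aurB and the spindle checkpoint kinase BubR1, were called in no mutant, with log2 fold changes between -0.32 and 0.28. A fit of only the msl-1 groups called aurB lower (-0.38, adjusted p = 0.0469). BubR1 lies 472 bp from mle on 2R and did not pass in mle mutants (0.21 ± 0.17, adjusted p = 0.532). The median over the 11 G2/M genes was 0.17 for mle, 0.09 for roX1 roX2, 0.05 for msl-1 and -0.08 for msl-2. That over the 8 G1/S genes was -0.21, -0.29, -0.21 and -0.04 in that order. With 21 libraries the msl-1 medians were 0.48 for G2/M and 0.05 for G1/S genes, so the sign of the latter turned.

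Levels were also summed over each class, with no test. The 8 G1/S genes summed to 1146 and 1148 CPM in msl-1 heterozygotes and to 851, 914 and 834 CPM in msl-1 mutants. They summed to 1079 and 1096 CPM in mle heterozygotes and to 896, 936 and 1023 CPM in mle mutants, and the roX1 roX2 mutants (913, 957 and 1000.2 CPM) lay below all 7 heterozygous libraries. In msl-2 the sums overlapped, at 1062, 1078 and 1131 CPM against 1077, 1018, 1066 and 1099 CPM. E2f1, at 418 and 538 CPM in controls and 238 to 257 CPM in mutants, made up most of the difference in msl-1. The 15 replication genes summed to 2099 and 1554 CPM in msl-1 heterozygotes and 2538, 2913 and 2509.6 CPM in msl-1 mutants, without overlap. PCNA and RnrL, with levels given above, made up most of that difference. The median log2 fold change of the 15 genes in msl-1 was 0.07, with 10 above 0. In msl-2, mutant libraries 1, 2 and 4 stood at 3103, 2846 and 3076 CPM, above the controls at 2181, 2278 and 2548 CPM, and replicate 3 stood at 2112 CPM, below them. The replication sums of mle mutants (1699, 2695 and 2073 CPM) overlapped their controls (1466 and 1986.5 CPM). Those of roX1 roX2 mutants (2463, 2098 and 2088 CPM) lay within the range of the 7 heterozygous libraries (1466 to 2548 CPM), so msl-1 is the comparison of the 4 in which the replication sums did not overlap. Sums of the 11 G2/M genes overlapped between mutants and controls in all 4 comparisons. These are levels in whole discs, so fewer cells of a type and less RNA per cell cannot be told apart, and no level here counts dividing or arrested cells.

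**Figure D4:**
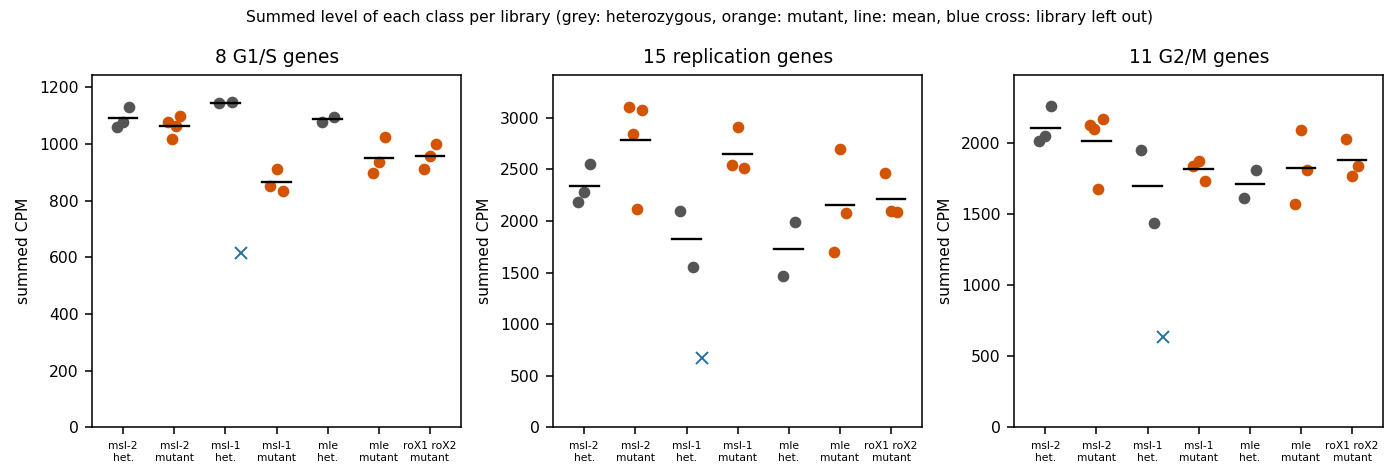
Summed level in CPM of the 8 G1/S, 15 replication and 11 G2/M genes in every library; grey points are heterozygous, orange points mutant, the line is the group mean and the blue cross is the library left out. The G1/S sum of msl-1 mutants lies at 834 to 914 CPM against 1146 and 1148 CPM in controls, and the replication sum of msl-1 mutants lies at 2509.6 to 2913 CPM against 1554 and 2099 CPM.

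The genes were also read by chromosome, since the MSL complex acts on the male X. Of the 34 genes 5 are X-linked (CycD, Rbf, Mcm6, Cdc45 and fzr), and all 20 of their log2 fold changes were below 0 in the 20 libraries (16 of 20 with all 21). Their medians were -0.60 for mle, -0.35 for roX1 roX2, -0.33 for msl-1 and -0.21 for msl-2, beside -0.61, -0.37, -0.44 and -0.35 over all X-linked genes tested. With 21 libraries the msl-1 median of the 5 was 0.06, a turn in sign. Of all X-linked genes 37.8% were called lower in mle, 29.2% in roX1 roX2, 25.6% in msl-1 and 26.5% in msl-2, and of the 5 genes here 2, 2, 0 and 1. Nearest to 0 stood Mcm6 in msl-2 (-0.05 ± 0.19) and fzr in mle (-0.04 ± 0.19), and the lowest were CycD in mle and roX1 roX2. The 29 autosomal genes had medians of 0.17, 0.11, 0.07 and 0.15 in that order of mutants, beside -0.01, -0.02, -0.06 and 0.02 over all genes of chromosomes 2 and 3. The lower calls of Cdk4, E2f1, dap and Cdk1 are on autosomes, as are all higher calls.

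**Figure D5:**
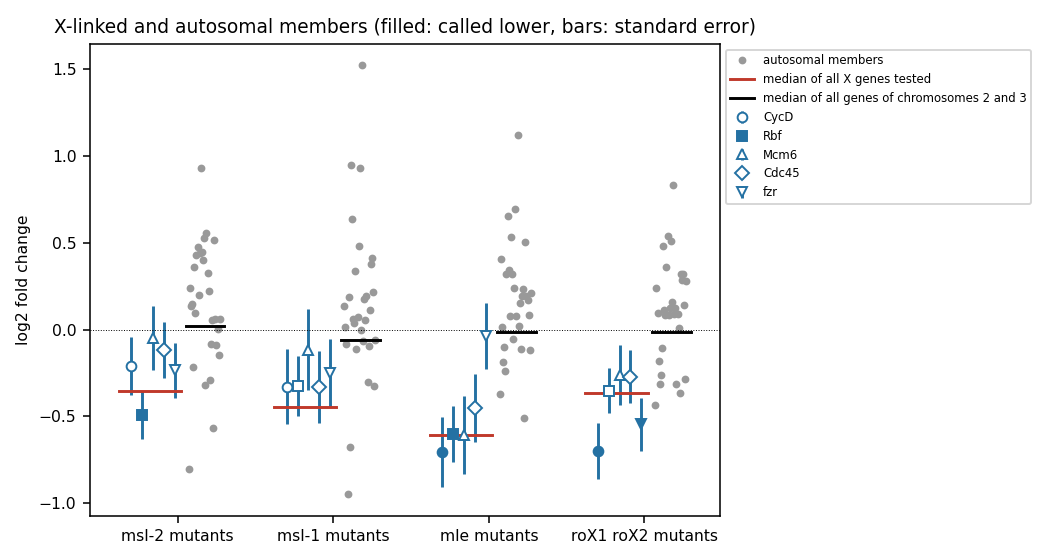
Log2 fold change of the 5 X-linked genes (blue symbols with standard errors, filled where called lower) and of the 29 autosomal genes (grey points) in each mutant; red lines are medians of all X-linked genes tested and black lines medians of all genes of chromosomes 2 and 3. The X-linked genes lie below 0 in every mutant, from -0.04 for fzr in mle to -0.71 for CycD in mle.

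On the second chromosome, the mutants are homozygous for the chromosome that carries msl-2, msl-1 or mle, and their controls carry CyO-GFP in place of 1 copy. The labels do not give the second chromosome of the roX1 roX2 stock. Of the 34 genes 17 lie on chromosome 2, among them RnrL, dup, Cdk4, Cdk1 and dap. For these, an effect of the mutation and one of the different chromosome 2 in the controls cannot be told apart. The same limit holds for genes of other chromosomes, since the controls differ in chromosome 2 whichever gene is read.

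The change in msl-1 discs differed from that in msl-2 discs for 5 genes, by the test of the difference itself. Cdk4 (0.94 ± 0.25, adjusted p = 0.0165) and RnrL (0.96 ± 0.26, adjusted p = 0.0194) changed more upward in msl-1 than in msl-2. E2f1 (-1.10 ± 0.21, adjusted p = 0.00238), dap (-1.04 ± 0.28, adjusted p = 0.0169) and Orc2 (-1.05 ± 0.32, adjusted p = 0.0323) changed more downward. Over all genes 7.89% were called in the first direction and 7.72% in the second. With 21 libraries, where the shares over all genes were 7.47% and 19.4%, Cdk4 (1.30, adjusted p = 0.0203) and RnrL (1.36, adjusted p = 0.0289) were called, and E2f1, dap and Orc2 were not (adjusted p = 0.197, 0.151 and 0.0826). No gene was called for msl-1 against mle or for mle against msl-2 by edgeR (1 and 2 genes at an unadjusted p under 0.05). Over all genes 0.289% were called in each direction of the first contrast, and 0.0772% and 0.125% in those of the second, so the mutants were not shown to differ there. The roX1 roX2 change was not set against the others, because it shares their controls.

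The heterozygous groups themselves differed, which touches these differences. Between msl-1 and msl-2 heterozygotes 4 of the 34 genes were called: in msl-1 heterozygotes Cdk4 (-0.67 ± 0.19, adjusted p = 0.0321), Mcm6 (-0.74 ± 0.23, adjusted p = 0.0453) and polo (-0.62 ± 0.20, adjusted p = 0.0451) were lower and E2f1 (0.65 ± 0.16, adjusted p = 0.0154) was higher. All genes were called at 4.06% higher and 6.02% lower in that contrast. The Cdk4 level of msl-1 mutants (89.1 to 100.1 CPM) overlapped that of msl-2 mutants (59.0 to 95.2 CPM), and it was the controls that lay apart. For E2f1 both moved in the 20 libraries: msl-1 heterozygotes lay above, and msl-1 mutants below, every msl-2 library of either kind. The left-out msl-1 heterozygous library lay below all msl-2 libraries instead. With 21 libraries the E2f1 difference between these heterozygotes was 0.25 and was not called (adjusted p = 0.489). Cdk4, Mcm6 and polo were still called lower (adjusted p = 0.00994, 0.0157 and 0.0204). The other pairs of heterozygous groups had 0 genes called by edgeR, with 4 genes (msl-1 against mle, where 0.106% of all genes were called higher and 0.106% lower) and 9 genes (mle against msl-2, 0.415% and 0.338%) at an unadjusted p under 0.05.

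Other genes of the same steps, listed by name, were read from the same fit. Of 27 other replication genes tested, 2 were called higher and 0 lower for msl-2, 3 and 2 for mle, 4 and 1 for roX1 roX2, and 4 and 0 for msl-1. Over all genes 2.96% were called higher and 8.6% lower in msl-2, 3.73% and 9.76% in mle, 6.24% and 8.51% in roX1 roX2, and 10.2% and 12.9% in msl-1. RPA1, a subunit of the protein that coats single-stranded DNA at forks, was higher in all 4 on the log2 scale, by 0.78 ± 0.19 in msl-2 (adjusted p = 0.0105), 1.64 ± 0.24 in mle (adjusted p = 5.35e-05), 1.16 ± 0.17 in roX1 roX2 (adjusted p = 3.26e-05) and 1.81 ± 0.24 in msl-1 (adjusted p = 9.45e-06). RfC4, a subunit of the PCNA loader, was higher in msl-1 (1.52 ± 0.29), mle (0.91 ± 0.28) and roX1 roX2 (0.69 ± 0.20). PolD1, the catalytic subunit of DNA polymerase delta, was higher in msl-1 (0.82 ± 0.22), mle (0.66 ± 0.21) and roX1 roX2 (0.52 ± 0.16), and its partner PolD2 in roX1 roX2 (0.65 ± 0.17). PolE1, of polymerase epsilon, was higher in msl-2 (0.65 ± 0.20). The X-linked Psf3 of the GINS complex (-0.86 ± 0.22, mle) and Caf1-180 of the chromatin assembly factor (-0.61 ± 0.17 in mle, -0.61 ± 0.14 in roX1 roX2) were lower. With 21 libraries RPA1 was called in 3 mutants and not in msl-2 (adjusted p = 0.237). No other gene of this list was then called in msl-2 or roX1 roX2. The median of the 27 genes was 0.17 in msl-2, 0.14 in mle, 0.05 in roX1 roX2 and 0.29 in msl-1, against the medians of all genes given above.

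Of 16 other G1/S genes tested, 0, 2, 1 and 1 were called higher and 3, 2, 3 and 1 lower, for msl-2, msl-1, mle and finally roX1 roX2, beside 2.96%, 10.2%, 3.73% and 6.24% of all genes higher and 8.6%, 12.9%, 9.76% and 8.51% lower. CycG, a cyclin tied to growth control in flies, was higher in msl-1 (1.19 ± 0.18), mle (0.90 ± 0.18) and roX1 roX2 (0.84 ± 0.13). The X-linked SkpA, of the SCF ubiquitin ligase, was lower in msl-2 (-0.83 ± 0.17), mle (-0.78 ± 0.20) and roX1 roX2 (-0.55 ± 0.16). The X-linked mip130, of the Myb and MuvB complex, was lower in msl-2 (-0.47 ± 0.14), msl-1 (-0.49 ± 0.18) and mle (-0.67 ± 0.17). In msl-1 the related mip40 was higher (0.73 ± 0.21) and Rbf2, the second retinoblastoma gene, lower (-0.56 ± 0.19), and in msl-2 ago, which marks CycE for destruction, was lower (-0.56 ± 0.18). Of 51 other G2/M genes tested, 0, 4, 0 and 6 were called higher and 2, 1, 3 and 1 lower, listed as for the G1/S genes and beside the same shares of all genes. The X-linked kinesin gene Klp3A was lower in msl-2 (-0.44 ± 0.13), msl-1 (-0.99 ± 0.16) and mle (-0.67 ± 0.15). Also X-linked and lower were Zw10 of the kinetochore in msl-2 (-0.54 ± 0.15), the cohesin gene SMC3 in mle (-0.71 ± 0.22) and shtd, of the anaphase-promoting complex, in mle (-0.88 ± 0.21) and roX1 roX2 (-0.52 ± 0.17). The centrosome gene cnn was higher in msl-1 (0.69 ± 0.20) and roX1 roX2 (0.51 ± 0.15), as was the cohesin gene vtd (0.64 ± 0.19 and 0.53 ± 0.14). Incenp, of the aurB complex (0.50 ± 0.14), and twe, the meiotic Cdc25 (0.70 ± 0.19), were higher in roX1 roX2. With 21 libraries none of these G1/S and G2/M genes was called in msl-2 or roX1 roX2. In msl-1 none was then called lower, and 3 G1/S and 6 G2/M genes were called higher. Most calls of the other lists in mle were lost as well.

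Markers of other tissues moved with some groups, and their part in these values was not tested. All 8 wing disc markers matched, of 10 listed, were detected in every library. They summed to 1137 to 1198 CPM in msl-1 mutants and 1950 and 2031 CPM in their controls, and to 1260 to 1392 CPM in mle mutants and 1725 and 2151 CPM in theirs. In msl-2 mutants they summed to 1534 to 1878 CPM (controls 1830 to 1943 CPM), and in roX1 roX2 mutants to 1409 to 1628 CPM. In msl-1 5 of the 8 were called lower, and dpp had a higher mean in mutants (110 against 86.2 CPM). With 21 libraries 3 were called lower and 1 higher there. In msl-2 none of the wing disc markers was called. Fat body markers (6 genes) summed to 4724 CPM in msl-2 mutant replicate 2, and to 199, 22.6 and 347 CPM in replicates 1, 3 and 4. Their controls held 19.6 to 61.1 CPM. Outside the msl-2 mutants the sums ran from 15.01 to 61.4 CPM in the libraries used. In msl-2 all 6 had positive log2 fold changes and 1 was called. Larval muscle markers (6 genes, none at 0) summed to 484 to 1181 CPM in msl-2 mutants against 135 to 183 CPM in their controls. Most of that was 1 gene, sls, at a mean of 681 CPM in the mutants and 117 CPM in the controls, and 1 of the 6 markers was called. The mle mutants held 279 to 806 CPM of muscle markers, the highest in replicate 3, and overlapped their controls, at 174.5 and 286 CPM. All 6 had higher means in mle mutants, among them Tm2 (61.6 against 16.5 CPM) and Act57B (53.1 against 13.7 CPM). In msl-1 discs the 5 neuron and glia markers, none at 0, summed to 60.1 to 80.1 CPM in mutants and to 125 and 232 CPM in controls, without overlap, and 3 of 5 were called lower. There the 4 trachea markers, none at 0, summed to 1223 to 2389 CPM in mutants and 1037 and 1168 CPM in controls, also without overlap, and 0 of 4 were called by edgeR (3 at an unadjusted p under 0.05). Of these markers Gasp, serp and verm had higher means in the mutants. The mean of trh went the other way, at 35.8 CPM in mutants against 60.2 CPM in controls. Gut markers (6 genes) summed to 3207 CPM in roX1 roX2 replicate 2 and to between 2.27 and 12.8 CPM elsewhere. Within the group, that library held the lowest RnrL, at 257 CPM, and the highest fzr, at 42.8 CPM, nearest to the controls for both genes. What the gut signal adds to these levels was not tested.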

How the data were processed

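Poly-A RNA of 21 wing disc libraries was sequenced from a TruSeq Stranded mRNA kit, per the labels' protocols. The authors deposited 1 table of raw read counts per FlyBase gene, with 17558 genes and 1 column a library, and these counts were used as deposited. STAR 2.6.1b and featureCounts of Subread 1.6.1, with the builds dm6 and BDGP6, are named in the submitters' processing notes. Neither the strand setting of the counting nor its annotation release is stated in these sources, so the 14 of the 34 genes that overlap another gene may share reads with it. Positions and exon lengths came from an Ensembl annotation of the same assembly, in which 17252 genes were matched.

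Replicate 2 of the msl-1 heterozygotes was left out for its depth, gene number and mitochondrial share, a choice made from earlier work on these data, and fits with all 21 libraries are given beside. Genes were kept by filterByExpr (10367 of them, all 34 members included), TMM factors came from genes of chromosomes 2 and 3, and edgeR 4.0.16 (R 4.3.3) fitted 1 mean for each of 7 groups by robust quasi-likelihood. Adjusted p is Benjamini-Hochberg over all genes tested, called under 0.05, and SE is the log2 fold change divided by the square root of the F value. CPM uses the same factors, and RPKM divides CPM by exon length. Total counts of 1388848 to 4131600 gave standard errors of 0.12 to 0.37 for the log2 fold changes of the members.

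The 34 genes and the other lists were chosen with earlier results of these data known. Values in every library are given for CycE, stg, PCNA and Cdk1, and in each class for the 4 other members with the smallest adjusted p in any comparison. Of the other lists, up to 3 called genes with the smallest adjusted p per list and comparison are named, and a gene named through 1 comparison is given in every comparison that called it. Of the other replication genes listed, 28 of 33 were matched by symbol or synonym, as were 17 of 17 G1/S and 52 of 52 G2/M genes. The tests were checked on simulated counts. Alternatives were other scalings and filters, DESeq2 1.42.0, each library left out, fits of only the groups compared, a replicate block and other controls for roX1 roX2. Promoter sequences were not analysed here.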

Additional observations from a re-analysis of the deposited data

Results flagged for a closer look

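The level in every library was examined for a library far from the rest of its group in the msl-2 mutants, the only group of 4 libraries. Of 34 genes 3 had one, where chance gives about 1 in 20 for a single gene. The genes share the same 4 libraries, so they are not separate tests. Short of that mark, replicate 3 also held the far low end for many other members. Among them were Mcm2, Mcm5, Mcm6, Mcm7, Orc2, Orc5, Orc6, Cdk1, fzy and polo. It held the far high end for E2f1 and dap. In replicate 3, dpa, the Mcm4 subunit, was lowest at 201 CPM and RnrL was lowest at 218 CPM. In replicate 2, stg was highest at 358 CPM; that library also holds the fat body markers at 4724 CPM.

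The change in msl-1 discs minus that in msl-2 discs passed the test of the difference for 5 genes, each on the log2 scale. It was 0.94 for Cdk4 and 0.96 for RnrL, and it was -1.10 for E2f1, -1.04 for dap and -1.05 for Orc2. For Cdk4 and E2f1 the heterozygous groups of the 2 stocks also differed, by -0.67 and 0.65. With 21 libraries that of E2f1 was 0.25 and was not called. What sets these differences was not tested.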

How the results depend on the processing

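No gene changed sign while called under any alternative run. RnrL in msl-1 and roX1 roX2 was called under all of them, and Cdk4 and Orc2 in msl-2 and E2f1 in msl-1 under all but the fit with 21 libraries. With 21 libraries, higher and lower calls were 0 and 0 in msl-2, 5 and 0 in msl-1, 0 and 0 in mle and 1 and 0 in roX1 roX2, against 2 and 3, 2 and 2, 2 and 2, and 3 and 3 with 20; the added library raises the estimated spread. Calls among the other pathway genes were then 0 in msl-2, 2 in mle and 1 in roX1 roX2 (7, 12 and 14 with 20), differences between mutants 2 (5 with 20) and between heterozygous groups 11 (4 with 20). TMM on all genes gave 5 higher in msl-2 and 2 heterozygous differences. DESeq2 gave 5 higher in msl-2, 4 in msl-1, and 6 higher and 1 lower in mle. Without a filter, 1 was higher in msl-2, mle and roX1 roX2 each, 1 lower in msl-1 and in roX1 roX2, with 8 other genes in roX1 roX2 and 2 heterozygous differences; with at least 1 CPM in 3 libraries these were the same except 9 other genes and no move in the lower calls of roX1 roX2. Fits of only the groups compared gave 6 higher in msl-2, 4 in msl-1, and 1 higher and 0 lower in mle. For roX1 roX2, the msl-2 and mle heterozygotes as control gave 5 lower, msl-2 alone 6 lower, and msl-1 alone 1 higher and 1 lower. The cause of these moves was not tested.

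Leaving out 1 library at a time (20 fits) gave 1 to 6 higher and 1 to 3 lower in msl-2, 1 to 5 and 1 to 2 in msl-1, 0 to 3 and 0 to 4 in mle, and 1 to 5 and 1 to 3 in roX1 roX2. Other pathway genes called were 2 to 8, 4 to 15, 5 to 14 and 6 to 14, differences between mutants 0 to 6 and between heterozygous groups 0 to 7.

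Deviations from the group mean correlated at -0.25 to 0.18 between same-numbered replicates. With only 2 or 3 control libraries a stock, these correlations cannot show whether the numbers pair the samples. No pairing was assumed in the main fit. A replicate block gave 6 higher and 1 lower in msl-2, 3 and 2 in msl-1 and 3 and 2 in mle. No paired analysis was possible for roX1 roX2 because the labels give it no controls of its own. Standard errors were 0.12 to 0.37, and log2 fold changes of up to 0.95 (PCNA in msl-1) did not pass, so a gene that was not called may still differ.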
